A study of Mus musculus with 16 samples.

Results

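The loci of Lag3, Tigit, Btla, Cd160, Cd96 and Cd226 were described in ChIP-seq peak lists of mouse CD8+ T cells treated with an LSD1 inhibitor or vehicle. These are 6 of the 26180 genes with a curated RefSeq transcript in mm10, and each locus was taken as the gene record with 30 kb added on either side. Of the 214352 peaks in the 12 deposited lists, 156 overlapped the 6 windows, 77 from vehicle (Veh) and 79 from inhibitor (GSK) libraries.

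The cells came from the spleens of OT1 mice, which bear a rearranged receptor transgene specific for ovalbumin, so that both groups had it. They were activated for 48 h through CD3 and CD28 with 20 ng/mL IL-2 and then expanded in IL-2 for 3 days. GSK2879552 (GSK), an irreversible inhibitor of the H3K4me1/2 demethylase LSD1, was given at 0.5 μM throughout, and the Veh group received vehicle over the same time. Antibodies recognised LSD1, Pol II (RNA polymerase II), H3K27ac, H3K4me3, H3K4me2 and H3K4me1, with 1 library per antibody and treatment and therefore no spread between replicates.

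All 6 CD8 T cell markers examined (Cd8a, Cd8b1, Cd3d, Cd3e, Cd3g, Thy1) had an H3K4me3 promoter peak in both treatments. Promoter H3K27ac was called at 3 of them in Veh only (Cd8b1, Cd3e, Thy1) and at none in GSK. Pol II was called in both treatments at Cd8b1, Cd3e and Thy1, in GSK only at Cd3d and Cd3g, and in neither at Cd8a. Cd8a thus had neither H3K27ac nor Pol II in any list. The promoters of Cd4, of 3 B cell, 3 myeloid and 2 NK cell markers had no H3K4me3, H3K27ac or Pol II peak in either treatment.

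The 6 genes encode cell surface receptors that tune the T cell response. LAG3 is related to CD4 and binds MHC class II. TIGIT, CD96 and the activating receptor CD226 share ligands of the nectin and nectin-like family, among them CD155 (encoded by Pvr), so that inhibitory and activating receptors compete for the same ligand. BTLA and CD160 both bind HVEM, the product of Tnfrsf14. LSD1 takes methyl groups off mono- and dimethylated H3K4. H3K4me3 marks active and poised promoters, H3K4me1 is typical of enhancers, and H3K27ac accompanies active elements of both kinds.

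Lag3 (chr6:124904359-124912434, minus strand) lies between Cd4 and the overlapping starts of Ptms and A230083G16Rik. Tigit (chr16:43626137-43665125, minus), Btla (chr16:45223705-45252895, plus) and Cd96 (chr16:46035652-46120248, minus) are on the same chromosome, and only Btla had no other curated gene in its window. Cd160 (chr3:96798763-96829351, minus) has 2 curated start sites, chr3:96814521 and chr3:96829351, and its upstream neighbour is Pdzk1. A promoter here is the 1 kb on either side of a curated transcription start site (TSS), and positions relative to a TSS are negative upstream.

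The RefSeq promoter table for GRCm38.p6 matched 4 of the 6 genes, and their upstream sequences are shown because they adjoin the start sites whose peaks are described in what follows. The peaks at the Cd160 start lay almost wholly on its downstream side, so the Cd160 matches are outside them. Capitals mark matches, on either strand, to 6 short motifs: RUNX (TGTGGT), ETS (AGGAAG), AP-1 (TGANTCA), T-box (TCACACC), GC box (GGGCGG) and TCF/LEF (CTTTGAT). The 250 bases before the Cd160 start at chr3:96814521 (chr3:96814522-96814771, minus strand) held a T-box match, a GC box, an ETS match and a RUNX match.
Cd160: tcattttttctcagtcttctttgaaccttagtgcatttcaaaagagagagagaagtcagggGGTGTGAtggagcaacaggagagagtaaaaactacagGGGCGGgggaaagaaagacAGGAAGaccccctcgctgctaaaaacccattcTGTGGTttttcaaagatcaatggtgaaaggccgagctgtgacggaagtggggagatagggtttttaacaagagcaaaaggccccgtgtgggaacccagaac
The same stretch before Cd96 (chr16:46120249-46120498, minus strand) held a RUNX match.
Cd96: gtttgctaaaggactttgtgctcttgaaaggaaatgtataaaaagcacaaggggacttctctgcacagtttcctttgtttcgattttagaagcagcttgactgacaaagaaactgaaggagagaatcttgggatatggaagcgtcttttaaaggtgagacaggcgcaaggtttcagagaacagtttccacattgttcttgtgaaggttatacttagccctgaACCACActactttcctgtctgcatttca
For Tigit (chr16:43664307-43664336, minus strand) and Btla (chr16:45224147-45224176 and chr16:45224305-45224334, plus strand) only the matched sites are shown, 30 bases each.
Tigit RUNX site: cgtgtatctctaACCACAtgttttatttgt
Btla RUNX site: atcagaaacaaaACCACAgcagggcctctt
Btla ETS sites: tctctagggAGGAAGAGGAAGtttgccctt

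The RUNX letters were present in all 4 sequences, starting at base -101 from the TSS in Cd160, -140 in Tigit, -178 in Btla and -28 in Cd96. They were found in 14% of the 32851 RefSeq promoter sequences, each searched over the 250 bases before its start. The ETS letters, present in Cd160 and in tandem in Btla, were found in 29.5% of those promoters. The GC box was found in 32.7%, AP-1 in 6.75%, T-box in 3.33% and TCF/LEF in 3.21%. These matches describe the letters only.

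**Figure D1:**
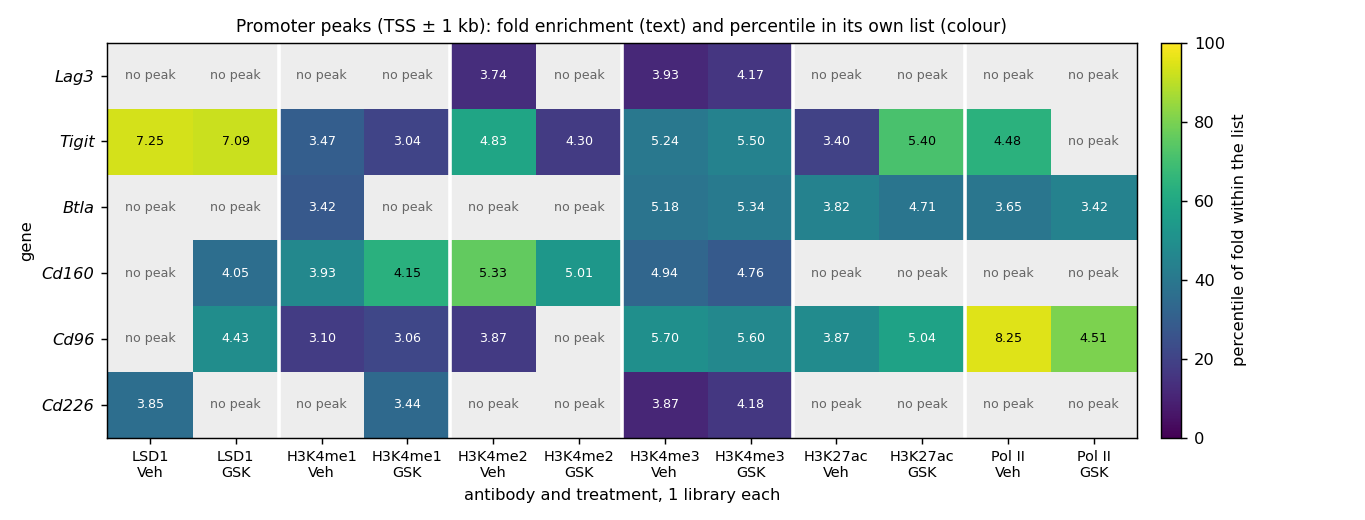
Promoter peaks of the 6 genes (rows) in the 12 libraries (columns, 1 library per antibody and treatment). The text in a cell is the fold enrichment of the peak with the highest fold within 1 kb of a curated TSS, and colour gives that fold's percentile among all peaks of the same list. Tigit had a promoter peak in 11 lists, and Lag3 in 3.

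H3K4me3 was present at all 6 promoters in both treatments, while the other marks divided the genes. Tigit had a promoter peak in 11 of the 12 lists, Cd96 in 10, Btla and Cd160 in 7 each, Cd226 in 4 and Lag3 in 3. Tigit, Btla and Cd96 had promoter H3K27ac in both treatments, and Btla and Cd96 also had Pol II in both. Lag3, Cd160 and Cd226 had neither H3K27ac nor Pol II at the promoter in any list. H3K27ac was thus called at 3 members in each treatment (20.5% of all genes in Veh, 8.58% in GSK), and Pol II at 3 in Veh and 2 in GSK (29.3% and 24.9%). Over all genes, 49.6% had promoter H3K4me3 in both treatments (50% in Veh, 51.1% in GSK), 8.25% had H3K27ac in both and 22% had Pol II in both. Among the 12997 genes with H3K4me3 in both, 36.9% had no promoter Pol II peak in either.

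For each peak the authors' files give a fold enrichment over local background, and its percentile is its rank among all peaks of that list. The H3K4me3 peaks of the members were of middle or low rank, from percentile 10.6 at Cd226 to 49.9 at Cd96 in Veh. In GSK the lowest was Lag3 at 15.9 and the highest again Cd96 at 46.5. Between treatments they moved by no more than 5.48 percentile points (Cd226, 10.6 to 16.1), and 80% of all genes with H3K4me3 in both moved between -7.7 and 10.9. The Veh H3K4me3 peaks of the CD8 T cell markers ranked from percentile 1 (Cd3d) to 40.3 (Cd3e). A low rank by fold was thus not particular to the members.

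Promoter LSD1 was found at 2 members in Veh and 3 in GSK (36.3% and 41.6% of all genes), and only Tigit was in both sets. LSD1 in both treatments was found at 31.9% of all genes. Cd226 had an LSD1 peak in Veh only, as did 4.44% of all genes. Cd160 and Cd96 had LSD1 in GSK only, as did 9.74% of all genes. These peaks were weaker than that of Tigit: the Cd226 peak had fold 3.85 and −log10 p 5.15, Cd160 4.05 and 5.47, and Cd96 4.43 and 6.85. Lag3 and Btla had no LSD1 peak at the promoter. A GSK LSD1 peak lay 1.45 kb after the Lag3 TSS, so with a promoter window of 2.5 kb the GSK count was 4 members.

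Promoter H3K4me2 was present at Lag3, Tigit, Cd160 and Cd96 in Veh (39% of all genes) and at Tigit and Cd160 in GSK (28.2%), so that Tigit and Cd160 had it in both (26.2%). The Veh-only state of Lag3 (fold 3.74) and Cd96 (fold 3.87) was shared by 12.8% of all genes. The GSK H3K4me2 list was shorter, 9437 peaks against 15219, and the Cd96 peak was not among the strongest Veh peaks when both lists were cut to the same length. H3K4me1 was called at 4 members in Veh and 4 in GSK (30.3% and 36.8% of all genes), at Tigit, Cd160 and Cd96 in both (26.9%), at Btla in Veh only (3.41%) and at Cd226 in GSK only (9.85%).

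The Tigit promoter, which drives the receptor for CD155, had LSD1 at nearly the same strength in both treatments. Fold was 7.25 in Veh and 7.09 in GSK, at percentiles 93.7 and 92, with summits at -0.34 and -0.41 kb. Over all genes with LSD1 in both treatments the median fold ratio of GSK to Veh was 1.15, against 0.978 at Tigit.

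H3K27ac at the Tigit promoter had fold 3.40 in Veh and 5.40 in GSK, percentile 19.9 and 71.4. This rise of 51.5 points was at percentile 99.4 of the changes at the 2159 genes with promoter H3K27ac in both, and by −log10 p (8.30 and 11.1) it was at percentile 99.2. The region also narrowed and shifted. In Veh it was 1034 bp wide and ran from -0.718 to 0.315 kb. In GSK it was 373 bp wide and ran from 0.064 to 0.436 kb. A broad region's fold is averaged over its width, so a narrower region can carry a higher fold, and over all such genes the median fold ratio was 1.18 and the median width ratio 0.694. When the Veh list was shortened to the length of the GSK list, the Tigit Veh peak was no longer in it. The study states far fewer read pairs for the GSK than for the Veh H3K27ac library, the widest gap of any antibody. The part of depth in these H3K27ac differences was not tested.

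H3K4me2 at Tigit went the other way, from percentile 58.7 (fold 4.83, 566 bp) in Veh to 17.3 (fold 4.30, 1557 bp) in GSK. This change was at percentile 5.5 of the genes with H3K4me2 in both, and by −log10 p (10.4 and 7.41) at percentile 9.65. Pol II was called at the Tigit TSS in Veh only, with fold 4.48 and −log10 p 7.21, and 7.33% of all genes had promoter Pol II in Veh only. H3K4me3 fold was 5.24 and 5.50, and H3K4me1 fold 3.47 and 3.04.

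The Cd96 promoter had the highest Pol II rank of the 6 genes. Fold was 8.25 in Veh and 4.51 in GSK, percentile 95 and 80.1, and −log10 p was 21.9 and 8.77. The fold ratio of 0.546 lay below the median of 0.811 over the 5759 genes with promoter Pol II in both, and the change in percentile, -14.9 points, was at percentile 17.6 of theirs. H3K27ac at Cd96 had fold 3.87 in Veh over 1124 bp and 5.04 in GSK over 321 bp. Its percentile was 48.2 and 57.7 by fold, a difference of 9.51 points beside a median of -6.7 over all genes with H3K27ac in both. By −log10 p (10.9 and 9.34) the difference was -7 points beside a median of -13.9, so Cd96 lay above the median either way, at percentiles 84 and 61.6 of all changes.

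Btla, an HVEM receptor with an otherwise isolated window, had a compact promoter pattern. H3K4me3, H3K27ac and Pol II were centred within 0.5 kb of the TSS in both treatments, and H3K4me3 fold was 5.18 and 5.34. H3K27ac fold was 3.82 in Veh and 4.71 in GSK, with −log10 p 8.52 and 7.84. Pol II fold was 3.65 and 3.42. No H3K4me2 peak was called anywhere in the Btla window.

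Cd160, the other HVEM receptor, had its 7 promoter peaks at the start at chr3:96814521 and none in any list at the start at chr3:96829351. H3K4me2 there had fold 5.33 in Veh and 5.01 in GSK, percentile 76 and 53, a change at percentile 19.9 of all genes with H3K4me2 in both. H3K4me1 had fold 3.93 and 4.15, and H3K4me3 4.94 and 4.76.

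At Lag3 the promoter H3K4me3 region lay just after the TSS and was wide, 1826 bp in Veh and 1750 bp in GSK, with fold 3.93 and 4.17. At Cd226, LSD1 in Veh and H3K4me1 in GSK covered nearly the same stretch, centred near -0.5 kb, and H3K4me3 (fold 3.87 and 4.18) covered the first part of the gene. With 1 library per group, none of these promoter differences has a replicate check, and the lists do not hold signal below the calling level.

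**Figure D2:**
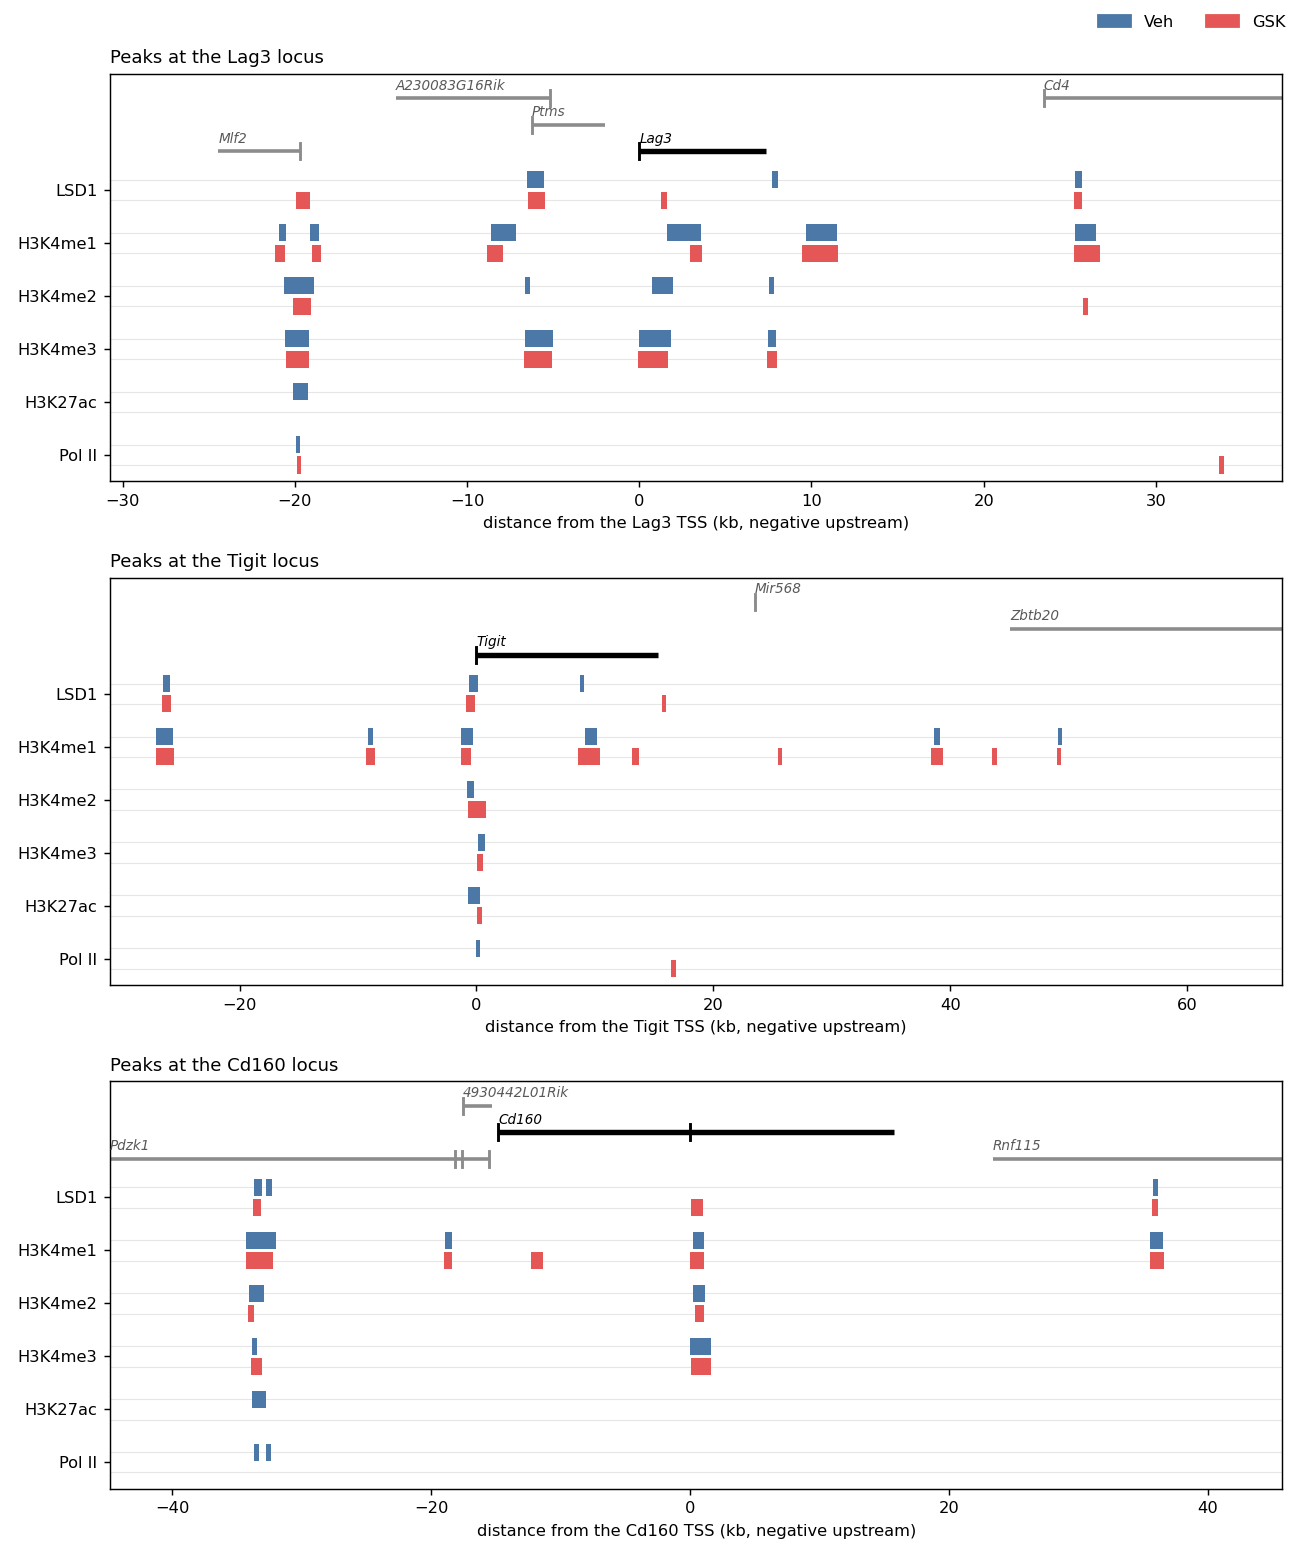
Peaks of the 12 lists in the windows of Lag3, Tigit and Cd160, with distance from the member's TSS in kb on the x axis and antibodies on the y axis (blue, Veh; red, GSK). Black bars are the member gene, grey bars are neighbouring curated genes, and vertical ticks are curated start sites. Very narrow peaks are drawn at a minimum width, and Cd160 distances are counted from the start that had peaks.

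The windows held 51 separate elements, promoters included, when overlapping peaks of the 12 lists were merged. Tigit and Cd226 had 11 each, Cd96 9, Lag3 8, Btla 7 and Cd160 5. Of the 51 elements, 25 were covered by H3K4me1 alone and 17 held an LSD1 peak. LSD1 elements were most numerous at Lag3 (5) and Tigit (4), and Btla and Cd226 had 1 each. Of all 156 peaks, 42 lay at a member's own TSS, 29 at the TSS of a neighbour, 49 in introns, 7 in exons and 29 between genes.

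The strongest LSD1 peak of the 6 windows was not at a promoter but in intergenic sequence at -26.04 kb from the Tigit TSS. In Veh it had fold 9.35 and −log10 p 23 (chr16:43690066-43690681), and in GSK fold 6.01 and −log10 p 10.1, percentiles 97.9 and 82.7. H3K4me1 covered it in both treatments with fold 4.49 and 3.85, and no H3K4me2, H3K4me3, H3K27ac or Pol II peak was called there. The 201 bases around the Veh summit (chr16:43690129-43690329, plus strand) are shown for that reason and held 1 ETS match.
Tigit upstream element: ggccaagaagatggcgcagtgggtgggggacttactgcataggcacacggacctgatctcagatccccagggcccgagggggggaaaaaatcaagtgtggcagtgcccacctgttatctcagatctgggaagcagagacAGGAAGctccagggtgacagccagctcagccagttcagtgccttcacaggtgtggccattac

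A further LSD1 peak lay in a Tigit intron 8.91 kb after the TSS and was called in Veh only (chr16:43655138-43655466). Its fold was 7.03 and its −log10 p 16.1, at percentile 92.8. Of the 5392 intronic LSD1 peaks in the Veh list 33.6% were overlapped by a GSK peak, and of the 536 with the highest −log10 p 82.8% were. The Tigit peak, at percentile 91.2 of the Veh list by −log10 p, was near the lower edge of those 536. The share at its own strength was not computed. H3K4me1 was called in this intron in both treatments at low fold, 2.58 and 2.46. The GSK region (chr16:43653766-43655633) covered the LSD1 site, whereas the Veh region (chr16:43654018-43655054) ended just short of it. The 201 bases around its summit (chr16:43655171-43655371, plus strand) held no match to the 6 motifs and are shown as the strongest LSD1 peak of the windows found in a single treatment.
Tigit intron element: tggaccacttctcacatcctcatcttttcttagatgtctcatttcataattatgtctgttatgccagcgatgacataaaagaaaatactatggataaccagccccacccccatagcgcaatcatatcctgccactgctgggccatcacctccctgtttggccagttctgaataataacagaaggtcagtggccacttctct

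The Tigit window also had 3 H3K4me1 peaks in GSK with no Veh counterpart, at 13.46, 25.6 and 43.75 kb after the TSS, where 75.2% of all GSK H3K4me1 peaks met a Veh peak. The peak at 25.6 kb (chr16:43638416-43638754) had fold 6.07, at percentile 98.3 of the GSK list, whereas the other two had fold 2.24 and 3.41, and the former was absent when list lengths were made equal. In GSK alone, an LSD1 peak (fold 4.49) and a Pol II peak (fold 3.84) were called 15.81 and 16.61 kb after the TSS. Both lie inside the Tigit gene record, which follows a predicted transcript, but beyond the end of the curated transcript.

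The Cd160 window was dominated by an element at -33.1 kb from the Cd160 TSS, in an intron of Pdzk1 (chr3:96846508-96848811), which carried a peak in 10 of the 12 lists. LSD1 there had fold 7.10 in Veh and 7.85 in GSK, with −log10 p 18.1 and 19.1. H3K4me2 had fold 5.67 and 5.72, and H3K4me1 3.64 and 3.62. H3K4me3 had fold 3.8 over 236 bp in Veh and 5.40 over 853 bp in GSK, although no curated TSS lies within 1 kb. H3K27ac (fold 4.20) and Pol II (fold 4.25 and 3.77, as 2 peaks) were called there in Veh only. At equal list length this H3K27ac peak was absent, as were the other H3K27ac peaks of the windows called in Veh only, at Mlf2 and inside Cd226. The summit sequence (chr3:96847715-96847915, plus strand) is shown because most of the antibodies had peaks over it, and it held 1 ETS match on the minus strand.
Cd160 upstream element: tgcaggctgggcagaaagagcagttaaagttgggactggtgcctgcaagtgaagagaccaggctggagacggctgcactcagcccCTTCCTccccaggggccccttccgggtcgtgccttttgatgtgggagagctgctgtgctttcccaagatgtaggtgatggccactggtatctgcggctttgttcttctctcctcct

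The RUNX letters were absent from the 3 distal LSD1 summit windows shown. Of the 201-base windows around all Veh LSD1 summits, 22.9% held the RUNX letters and 29.8% the ETS letters. With 3 windows, the absence of RUNX letters cannot be told apart from that share. A further distal LSD1 peak of like strength, in an intron of Cd4 in the Lag3 window (−log10 p 18.2 in Veh), is not among those shown. In the same Cd160 window, the Pdzk1 promoter held an H3K4me1 peak of fold 6.69 in Veh and 8.04 in GSK, percentiles 99.4 and 99.9, with no other antibody. An intron of Rnf115, at 36.1 kb, had LSD1 (fold 4.44 and 3.97) with H3K4me1 (fold 5.07 and 4.51) in both treatments. Which gene these elements act on was not tested.

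At Lag3, the H3K4me3 peak with the highest fold of its window lay beyond the 3′ end of the gene and not at its promoter. It was centred at 7.72 kb (chr6:124903737-124904224 in Veh), with fold 9.11 in Veh and 9.08 in GSK, at percentiles 93 and 92.8. By −log10 p (39.5 in Veh and 43.7 in GSK) its rank was only middling, at percentiles 42.8 and 47.4. LSD1 (fold 3.77) and H3K4me2 (fold 4.09) were called at this site in Veh only. An intron of Cd4, at 25.5 kb from the Lag3 TSS, had LSD1 with fold 7.41 in Veh and 6.57 in GSK. H3K4me1 there had fold 4.84 and 4.02, and H3K4me2 was called in GSK only (fold 5.04). The Cd4 promoter itself had no peak in any of the 12 lists.

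Inside Lag3, H3K4me1 was called in both treatments, over 2005 bp centred at 2.61 kb in Veh and 681 bp centred at 3.29 kb in GSK. A weak LSD1 peak over coding sequence of exon 3, at 1.45 kb, was called in GSK only, with fold 3.39 at percentile 12.4. The region over the starts of Ptms and A230083G16Rik, at -5.9 kb from the Lag3 TSS, had LSD1 of fold 4.71 and 5.97. Mlf2, whose start is at -19.7 kb, had the only H3K27ac (Veh, fold 4.21) of the Lag3 window, with Pol II in both treatments at fold 5 and 3.46.

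**Figure D3:**
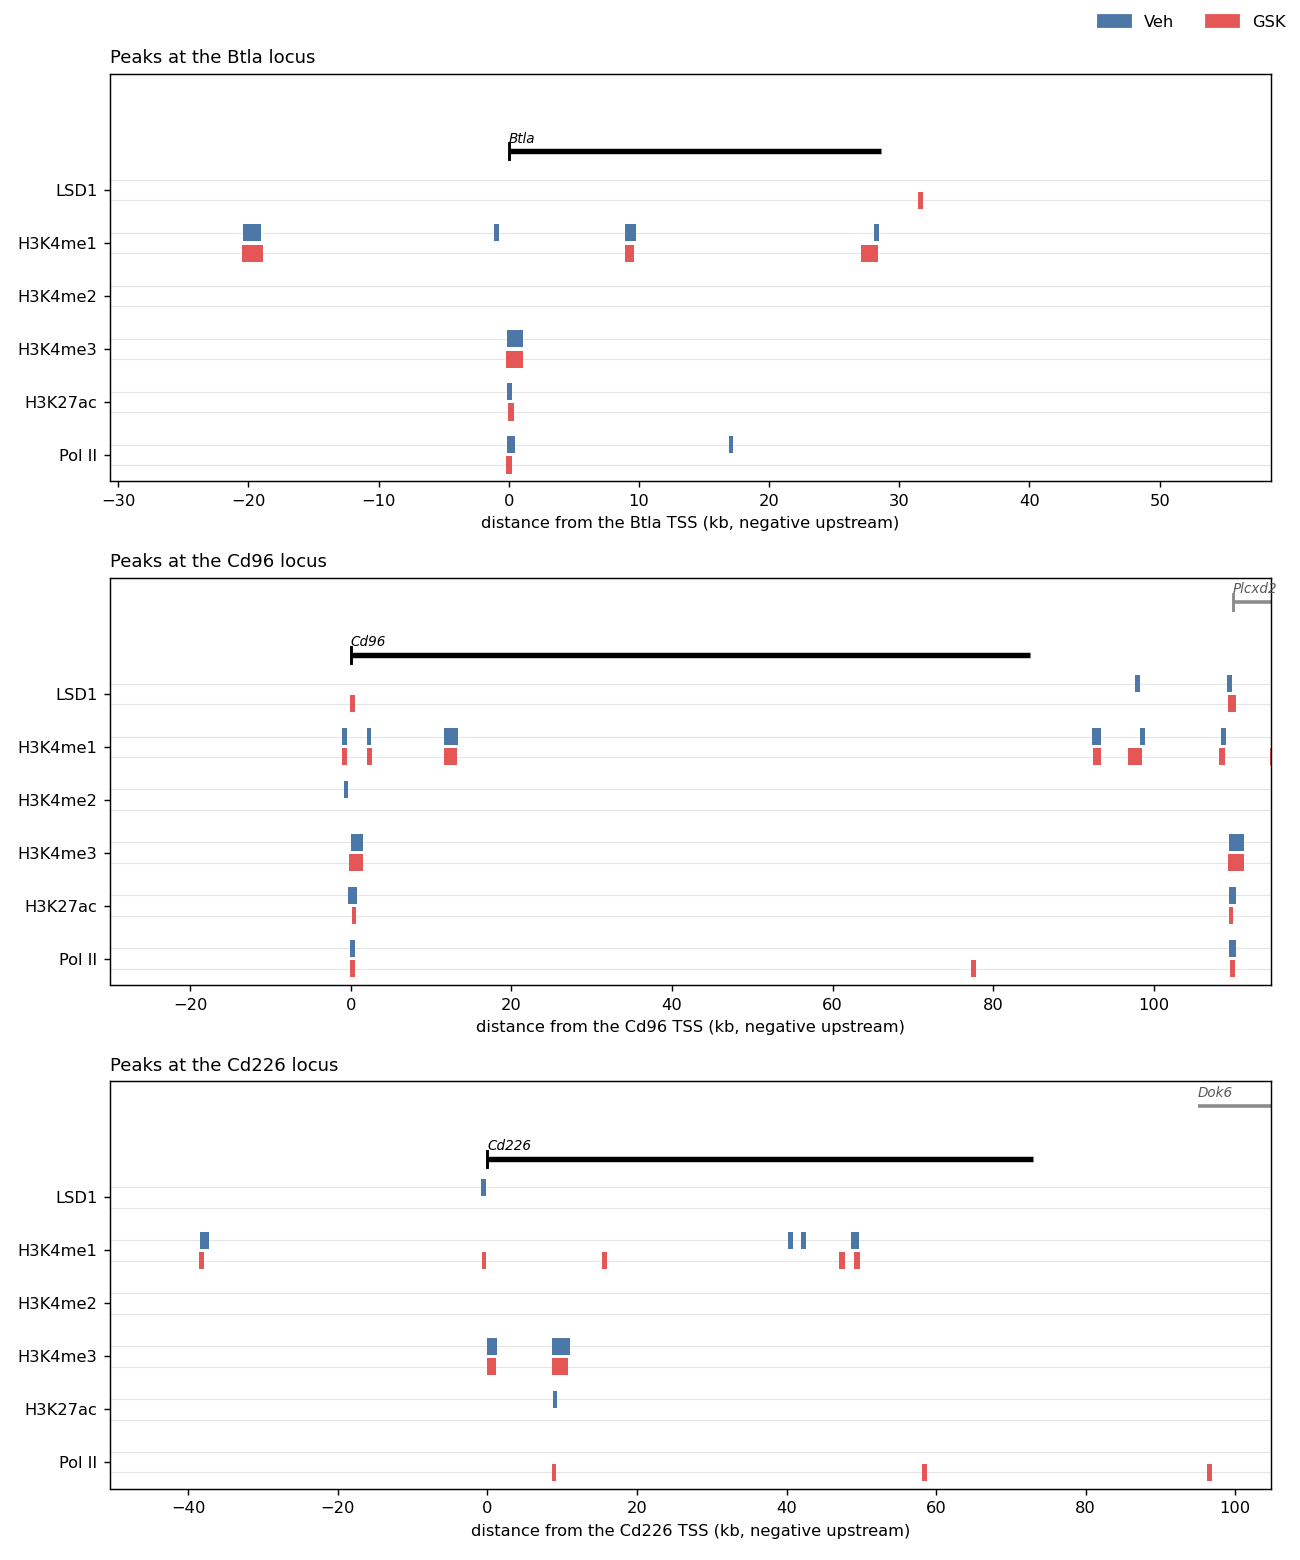
Peaks of the 12 lists in the windows of Btla, Cd96 and Cd226, drawn as distance from the member's TSS in kb (blue, Veh; red, GSK; black bars, member gene; grey bars, neighbouring curated genes; ticks, curated start sites). Btla has no H3K4me2 peak, and the H3K4me3 peaks at the right of the Cd96 window are at the Plcxd2 start.

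At Btla the distal signal was H3K4me1 in both treatments, at -19.7 kb (fold 4.50 and 4.76), in the first intron (4.04 and 3.88) and over the untranslated part of the last exon (3.5 in each). A Pol II peak in intron 2, at 17.05 kb, was called in Veh only (fold 3.2). The only LSD1 peak, at 31.62 kb and past the end of the gene, was weak and in GSK only, with fold 3.78 and −log10 p 4.83. At Cd96, H3K4me1 was called in introns 1 and 3 and at 92.9 kb after the TSS in both treatments, and LSD1 was called 97.94 kb after the TSS in Veh only (fold 3.81). The Plcxd2 promoter at the edge of the Cd96 window had LSD1, H3K4me3, H3K27ac and Pol II in both treatments.

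Cd226, on chromosome 18, had an additional H3K4me3 region inside the gene, centred 9.88 kb after the TSS in Veh, and it was wider than the one at the promoter, 2341 bp in Veh and 2150 bp in GSK. Its fold was 3.42 and 3.63. It begins close to the start of a predicted transcript that is not in the curated set, and it overlaps a coding exon. At its upstream edge H3K27ac was called in Veh only (fold 3.56) and Pol II in GSK only (fold 2.63, at percentile 1.62 of its list). Of the Cd226 intronic H3K4me1 peaks, a pair at 49.12 and 49.38 kb overlapped between treatments. The others were called in Veh alone (at 40.37 and 42.15 kb) or in GSK alone (at 15.62 and 47.44 kb), with folds from 2.52 to 3.10. In the whole Veh list 86.5% of intronic H3K4me1 peaks were overlapped by a GSK peak.

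**Figure D4:**
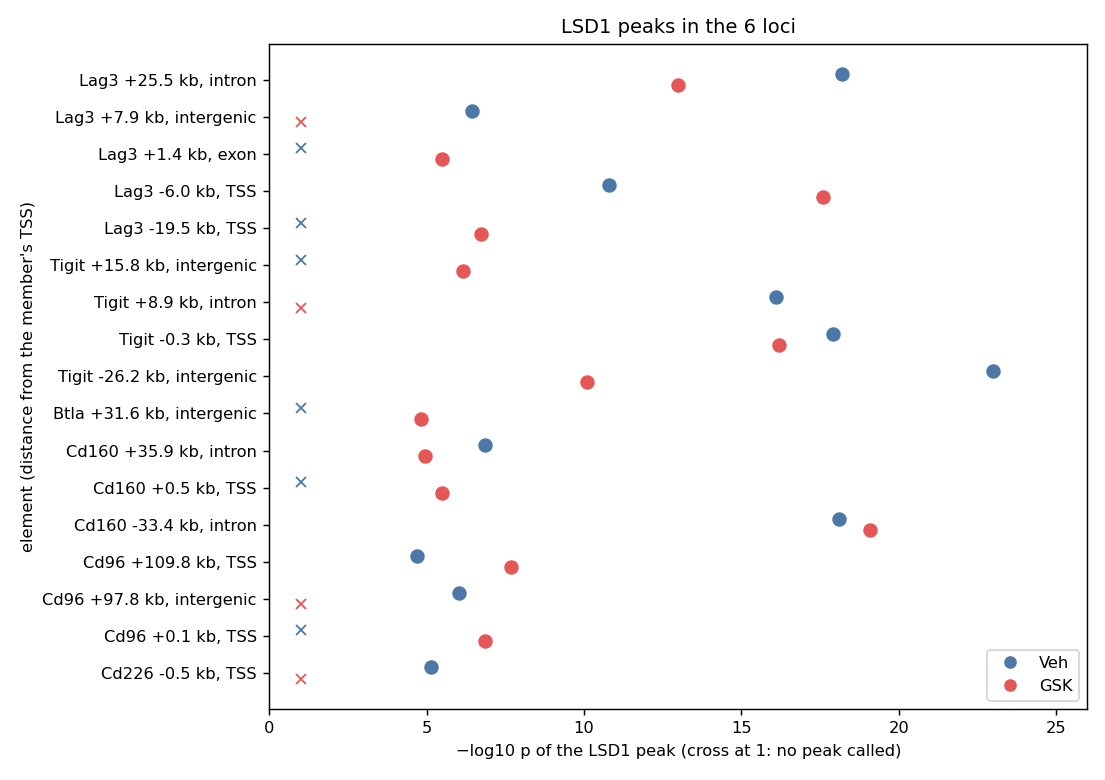
The −log10 p of the LSD1 peaks at the 17 elements of the 6 windows that held LSD1 (blue circles, Veh; red circles, GSK; a cross marks a treatment with no peak called). Labels give the member, the distance of the stronger peak's centre from the member's TSS and the annotation class, where TSS can also be a neighbour's start. The 7 elements with LSD1 in both treatments include those at Tigit (-26 kb and promoter), in the Pdzk1 intron and in the Cd4 intron.

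Over the 6 windows together, LSD1 had 12 peaks in Veh and 13 in GSK, a ratio of 1.08 (Wilson 95% interval 0.504 to 2.33), against 0.937 for the whole lists. H3K4me1 had 30 and 35 (ratio 1.17, 0.72 to 1.89), and its whole-list ratio was also 1.17. H3K4me2 had 8 and 5 (0.625, 0.215 to 1.82; whole lists 0.62). H3K4me3 had 12 in each list, H3K27ac 7 and 4 (0.571, 0.179 to 1.83; whole lists 0.371; a ratio of 4 at equal list length) and Pol II 8 and 10 (1.25, 0.509 to 3.07; whole lists 0.985). The whole-list ratio was inside the interval for every antibody, but the intervals were wide. They treat Veh and GSK peaks as independent, although many are the same region called in both lists. They are therefore only a rough guide and not a test.

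Of the Veh peaks in the windows, 7 of 12 LSD1 peaks were overlapped by a GSK peak, a share of 58.3% (32% to 80.7%), beside 54.6% of the whole Veh list. For H3K4me1 the share was 27 of 30, 90% (74.4% to 96.5%), beside 87.8%. All 12 H3K4me3 peaks were overlapped (75.8% to 100%), beside 97.3% of the whole list. For H3K4me2 4 of 8 were overlapped, beside 55.3%. For H3K27ac 4 of 7 were, 57.1% (25% to 84.2%), beside 35.2%, and for Pol II 4 of 8, beside 39.1%. The intervals cover counting error only and all contain the whole-list share, so at these peak numbers no departure of the 6 loci from the lists was detectable.

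In the other direction, 7 of 13 GSK LSD1 peaks in the windows met a Veh peak, 53.8% (29.1% to 76.8%), beside 57.8% of the whole GSK list. For H3K4me1 it was 28 of 35, 80%, beside 75.2%, and for H3K4me2 4 of 5, beside 89.2%. Every GSK H3K4me3 and H3K27ac peak met a Veh peak (12 of 12 and 4 of 4), beside 91.1% and 95%. For Pol II it was 4 of 10, 40%, beside 39.6%.

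**Figure D5:**
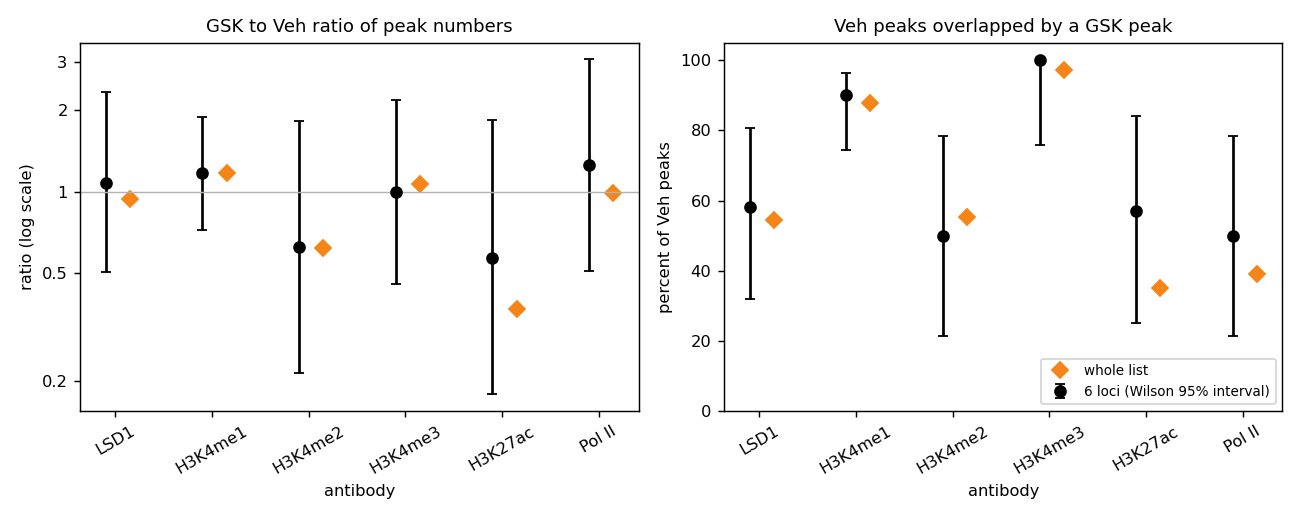
Peak numbers in GSK relative to Veh (left, log scale) and the percentage of Veh peaks that met a GSK peak (right), by antibody. Black circles with Wilson 95% intervals are the 6 windows, and orange diamonds are the whole lists, which lie inside the interval for each antibody.

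The 4 Pol II peaks shared between treatments were all at a TSS, of Btla, Cd96, Mlf2 and Plcxd2. Away from a TSS, 3 Pol II peaks were called in Veh and 6 in GSK, and none of them overlapped a peak of the other treatment. Most of these GSK peaks were weak: those in the Cd96 and Cd226 windows had −log10 q from 0.57 to 1.27. The GSK Pol II list began at 0.523. In Veh, the peak in the Btla intron had −log10 q 1.07. The study states more read pairs for the GSK than for the Veh Pol II library, and the part of depth was not tested. In the whole Veh list 14.1% of intronic and 13.9% of intergenic Pol II peaks were overlapped by a GSK peak, against 70.6% at TSSs. These shares by class were not computed for the GSK list.

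The promoters of 21 genes that encode ligands and signalling partners of these receptors were also examined. H3K4me3 was present in both treatments at 15 of them (49.6% of all genes), and at none in Veh only or GSK only (0.332% and 1.47% of all genes). Of the 13 ligand genes, those for CD155 and nectins 1 to 3 (Pvr, Nectin1, Nectin2, Nectin3), HVEM (Tnfrsf14) and the HVEM ligand LIGHT (Tnfsf14) had LSD1 in both treatments, while Nectin4, Fgl1, Clec4g, H2-Aa and H2-Eb1 had no peak in any list. LSD1 was in both treatments at 10 of the 21 (31.9% of all genes). It was in Veh only at Inpp5d, which encodes the phosphatase SHIP1 (4.44%), and in GSK only at Ptpn6, which encodes SHP-1 (9.74%).

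Pvr had H3K27ac (fold 5.03) and Pol II (fold 3.22) in GSK only, states shared by 0.332% and 2.94% of all genes. Tnfrsf14 had H3K27ac in Veh only (fold 3.61), as had Inpp5d and Arrb2 (12.3% of all genes), and Itgal, the LFA-1 subunit that associates with CD226, had it in both (8.25%). Pol II was present in both treatments at 7 of the 21 genes (22% of all genes), and at Grb2 in Veh only (7.33%). H3K4me2 was present in both at 9 (26.2%), and at Pvr and Tnfsf14 in Veh only (12.8%).

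The genes whose promoters were most like each member were found from the mean absolute difference in percentile over the 12 lists, with a promoter lacking a peak set to 0. For Tigit the nearest were Cd7 (a mean difference of 12.7 percentile points), Bst2 and Gm29243. For Cd96 they included Acsl5 (6.37) and Panx1. For Btla they were Pnrc2 (7.1), Nono and Smcr8, for Cd160 Atoh8 (3.14), Tmem82 and Mmp15, and for Cd226 Zscan30 (2.74), Bpnt1 and Gm19557. Lag3, with peaks in 3 lists, was not ranked. Members with few peaks score close to many genes, so these values are not comparable between members.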

How the data were processed

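CD8+ T cell ChIP-seq of 6 antibodies and 2 treatments was used, as 12 peak lists from 16 samples, and the 4 inputs were not analysed here. The authors mapped reads to mm10 with Bowtie2, removed PCR duplicates and called peaks per library with MACS2 (p-value cutoff 0.001). For each peak the deposited lists hold a fold enrichment (a ratio over local background), −log10 p, −log10 q, a score and, for LSD1 and Pol II, a summit. In the deposited lists the lowest −log10 p was 3 for Pol II and 3.01 for LSD1, whereas the histone lists began at a −log10 q of about 3, a stricter level. The score was not used as a measurement.

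Lists were joined to RefSeq GRCm38.p6 gene models in Python 3.11.15 with pandas 2.3.3. Gene records were extended by 30 kb, a peak belonged to a window or promoter if it overlapped by 1 bp, and promoters were 1 kb on either side of curated start sites. Peaks were sorted as TSS, exon, intron or intergenic in that order, and peaks of all lists were merged where they overlapped to give elements. Fold was compared between treatments by percentile within a list, since fold is on each library's own scale. A percentile still depends on where a list ends, so it does not correct for the differing list lengths. Wilson intervals (95%) were computed with scipy 1.17.1. Depth cannot be read from the lists. The study states read pairs per library. Unique pairs were fewer in GSK than in Veh for H3K27ac, H3K4me2 and LSD1, and more for Pol II, H3K4me1 and H3K4me3. LSD1 and H3K4me3 differed least. These read numbers were not used here, and a longer list can come from more reads. Groups hold 1 library each, so nothing was tested. The number of mice behind a library is not given in the sources used here. Overlap counting was tested on simulated intervals.

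All 6 members were named, with genes whose start or body lies in a window and holds a peak, a list of ligand and signalling genes, and the 3 genes most like each member with at least 4 promoter peaks, of which 1 is not reported here. Members, gene lists, motifs and cell type markers were chosen with earlier results of these data known. Alternatives (promoter width, flank, overlap of 50%, q-value filter, equal list length, ranking by −log10 p and gene models) are described in the closing section.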

Additional observations from a re-analysis of the deposited data

How the results depend on the processing

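Of 131 alternative values for 41 results, 126 stayed within the interval of the reported value or within 1.5 times the count, or, for changes in percentile, kept their sign. Some of these 126 could not have changed. The −log10 q filter of 2 removed nothing from the histone lists, which begin above it. Equal list length leaves the shorter list of each antibody whole. Within its interval, the Pol II ratio of 1.25 was 0.857 at a −log10 q of at least 2, the LSD1 ratio of 1.08 was 1 without neighbours' promoters, and the H3K4me2 ratio of 0.625 was 1 at equal list length. With equal list lengths, in which the longer list of an antibody is shortened to its strongest peaks, the ratio of GSK to Veh H3K27ac peaks was 4, the share of Veh H3K27ac peaks overlapped was 100%, and 1 member kept a Veh H3K27ac promoter peak. The Cd96 promoter peak was the 1 that stayed, of 7. The Veh H3K4me2 promoter peak of Cd96 also left its shortened list (3 members in place of 4). With an overlap of 50% of the Veh peak, the H3K27ac share was 14.3%. The change in percentile of Cd96 promoter H3K27ac was 9.51 by fold and -7 by −log10 p, beside all-gene medians of -6.7 and -13.9, so it was above the median by both; the cause was not tested. No paired analysis was possible because each antibody and treatment has 1 library, and replicate numbers only name libraries. Gene records follow predicted transcripts at Tigit, Btla, Lag3 and Cd226, which widens those windows beyond the curated transcripts. The alternatives with predicted starts, with curated bodies and without neighbours' promoters were chosen after seeing the data.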
